A study of Mus musculus with 22 samples.

Results

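Klk8, Hs3st3b1, Reck and Phf13 are 4 of the 9850 genes counted in the blood of a mouse model of spinocerebellar ataxia type 3 (SCA3), an inherited ataxia caused by a lengthened CAG repeat in the ATXN3 gene. They were selected on the genotype difference at 17.5 months: they were taken from a list of blood genes that differed between SCA3 and wild-type mice at that age. That difference is therefore given as a description, with no test. The genotype difference of the 4 genes is tested only at 9 months, in samples the selection did not use but partly from the same mice. Blood was sampled from the tail of male mice at 9 months (39 to 42 weeks) and at 17.5 months (74 to 77 weeks). There were 6 wild-type C57BL/6 samples and 5 SCA3 samples at each age, which makes 22 samples from 15 mice, 7 wild-type and 8 SCA3, with 5 wild-type and 2 SCA3 mice sampled at both ages. Mice are numbered 1 to 15 here, and a number met at both ages is 1 mouse. The SCA3 mice are of the hemizygous MJD84.2 line, in which the whole human ATXN3 gene with an expanded repeat is expressed throughout the body from its own promoter, and the wild-type mice carry no transgene. At 17.5 months the values in SCA3 blood were 2.12-fold those in wild-type blood for Klk8, 2.06-fold for Reck, 2.0-fold for Hs3st3b1 and 1.42-fold for Phf13, and at 9 months no gene of the table passed the test.

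The 4 genes act in different places. Klk8, also called neuropsin, is a secreted trypsin-like serine protease of the kallikrein family, best known from the hippocampus, where it cuts cell adhesion molecules at synapses, and from the skin. Reck is a membrane-anchored glycoprotein that inhibits matrix metalloproteinases and works with Adgra2 as a co-receptor for Wnt7 proteins in brain vessels. Hs3st3b1 is an enzyme of the Golgi that adds the rare 3-O-sulfate group to heparan sulfate, the sugar chain of cell surface proteoglycans that binds growth factors and chemokines. Phf13, also called SPOC1, is a nuclear protein whose PHD finger reads trimethylated lysine 4 of histone H3 and which takes part in chromatin condensation and the response to DNA damage. In whole blood such transcripts come from a mixture of leukocytes, platelets and immature red cells.

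In the GENCODE M21 annotation of GRCm38 the 4 protein-coding genes lie on 3 chromosomes. Klk8 spans 43797577 to 43803826 on chromosome 7 (plus strand) and Hs3st3b1 spans 63885792 to 63922290 on chromosome 11 (minus strand). Reck spans 43875530 to 43944806 (plus strand) and Phf13 spans 151989633 to 151996258 (minus strand), both on chromosome 4. Klk8 shares 382 exon bases, 24.8% of its exon sequence, with the antisense gene 2310002F09Rik, which is not a row of the table. Counting did not use strand, so reads of these 2 genes in the shared stretch cannot be told apart. No exon of another annotated gene overlapped the other 3 genes. The bases just before each start site (RefSeq, GRCm38.p6) are shown because the 4 genes were high in the same group of samples; each run is 5′ to 3′ on the strand of its gene and is limited to bases outside the annotated gene, with capitals for a GC box (the letters GGGCGG or, read from the other strand, CCGCCC).

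Klk8, chr7:43797327-43797576, plus strand: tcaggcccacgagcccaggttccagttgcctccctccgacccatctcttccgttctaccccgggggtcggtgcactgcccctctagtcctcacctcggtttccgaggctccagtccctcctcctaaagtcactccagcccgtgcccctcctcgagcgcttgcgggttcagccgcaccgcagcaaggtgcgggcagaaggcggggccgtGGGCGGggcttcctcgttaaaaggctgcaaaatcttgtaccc
Reck, chr4:43875280-43875529, plus strand: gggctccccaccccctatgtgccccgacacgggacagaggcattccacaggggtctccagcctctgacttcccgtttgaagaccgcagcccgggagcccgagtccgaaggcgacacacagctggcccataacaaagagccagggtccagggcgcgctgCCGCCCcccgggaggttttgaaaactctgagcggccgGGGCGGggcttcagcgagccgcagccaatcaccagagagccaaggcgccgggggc
Hs3st3b1, chr11:63922291-63922534, minus strand: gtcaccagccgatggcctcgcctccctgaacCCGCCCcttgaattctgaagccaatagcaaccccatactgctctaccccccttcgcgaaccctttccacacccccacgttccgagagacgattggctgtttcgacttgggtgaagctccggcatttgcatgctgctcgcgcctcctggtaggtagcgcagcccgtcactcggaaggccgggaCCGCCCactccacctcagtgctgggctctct
Phf13, chr4:151996259-151996429, minus strand: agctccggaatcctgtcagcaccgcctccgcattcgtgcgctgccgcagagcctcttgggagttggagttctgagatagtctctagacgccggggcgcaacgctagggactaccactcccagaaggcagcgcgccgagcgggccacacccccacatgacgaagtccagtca

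Each window of 250 bases before a start held a GC box, 1 in Klk8, 2 in Reck, 2 in Hs3st3b1 and 1 in Phf13, where it falls in the stretch inside the gene that is not printed. So did 57.5% of the 9734 windows of measured genes and 32.7% of all 32851 windows. The letters CCAAT (either strand) stood 2 times in the Hs3st3b1 window and 1 time in the Reck window, and 34.7% of the windows of measured genes had them. The TATA box (TATAAA), the core of a RUNX motif (TGTGGT) and the cyclic AMP response element (TGACGTCA) were in no window of the 4 on either strand, and 6.42%, 11.3% and 2.7% of the windows of measured genes had them. The core of an ETS motif (CCGGAA) stood 1 time, in Phf13, and in 23.2% of those windows. The windows had a GC content of 62.4% to 68.4%.

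Totals ran from 21898928 to 44390286 counts per sample. In wild-type mice they were 21898928 to 24847039 at 9 months and 32304025 to 44390286 at 17.5 months. In SCA3 mice they were 21922250 to 35615901 and 27545976 to 40831751. The members were low in this table: Klk8 averaged 20.2 CPM (counts scaled to a common sample total) over the 22 samples, Hs3st3b1 10.8 CPM, Phf13 9.84 CPM and Reck 4.78 CPM. The table itself begins at an average of 4 CPM, and only 2.11% of its genes lay below Reck. Per kilobase of exon sequence the order was Klk8 with 13.1, Phf13 with 3.07, Hs3st3b1 with 2.21 and Reck with 1.0 CPM per kilobase. The smallest count behind any value was 61, for Reck. Of 78 marker genes of 9 blood cell types, 69 were in the table, and none of them had a count of 0 in any sample. The GC content of the counted transcripts averaged 49.1% ± 0.25 (SD, n = 5) in SCA3 mice at 17.5 months, against 50.1% ± 0.53 (SD, n = 6) in wild-type mice of that age. The RNA integrity number (RIN) was 6.1 ± 0.85 (SD, n = 5) and 6.68 ± 0.35 (SD, n = 6) in the same groups. At 9 months it was 6.75 ± 0.51 (SD, n = 4) in SCA3 and 7.3 ± 0.39 (SD, n = 6) in wild-type mice.

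Klk8, the protease, was lowest in the older wild-type mice. In wild-type mice at 9 months it ran from 12.8 to 35.4 CPM with a median of 23.4 (n = 6). The SCA3 mice of 9 months, mice 9, 10, 12, 14 and 15, had 16.7, 17.8, 18.4, 24 and 29.5 CPM. The SCA3 samples of 9 months thus lay within the wild-type range. In wild-type mice at 17.5 months the values ran from 8.07 to 21.3 CPM with a median of 15.3 (n = 6). SCA3 mice 8, 11, 13, 14 and 15, of the same age, had 22, 20.3, 26.6, 19.2 and 25.4 CPM. In CPM the highest wild-type sample, mouse 6, thus lay above 2 of the 5 SCA3 samples. With TMM scaling (trimmed mean of M-values) but no GC correction, the older groups were compared on a log2 scale. They ran from 3.35 to 4.28 in wild-type and from 4.34 to 4.96 in SCA3 mice. After correction for GC content, also on a log2 scale, the ranges were 3.02 to 4.13 in wild-type and 4.45 to 5.19 in SCA3 mice. Klk8 is rich in GC (56.2% over its exons, higher than 84.7% of the genes), and the average GC content of the libraries was lower in the SCA3 group, with overlapping ranges. The order of the group means was SCA3 at 17.5 months (4.76 ± 0.28), wild-type at 9 months (4.42 ± 0.53), SCA3 at 9 months (4.31 ± 0.22) and wild-type at 17.5 months (3.65 ± 0.42), and each neighbouring pair in this order had ranges that overlap.

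Reck, the metalloproteinase inhibitor, was the lowest of the 4 genes. At 9 months it ran from 2.71 to 5.71 CPM in wild-type mice with a median of 3.65 (n = 6). At that age SCA3 mice 9, 10, 12, 14 and 15 had 4.41, 4.12, 3.88, 4.25 and 8.90 CPM. Mouse 15 stood well above the other SCA3 mice of that age. In wild-type mice at 17.5 months the range was 1.73 to 4.89 CPM with a median of 3.73 (n = 6). SCA3 mice 8, 11, 13, 14 and 15, of the same age, had 7.47, 5.13, 6.40, 6.79 and 8.62 CPM. All 5 were above every wild-type sample of that age, in CPM as well as after GC correction, and mouse 15 was again the highest. The corrected means were 2.77 ± 0.39 in SCA3 mice at 17.5 months, 2.24 ± 0.47 in SCA3 mice at 9 months, 2.03 ± 0.35 in wild-type mice at 9 months and 1.75 ± 0.26 in wild-type mice at 17.5 months. Ranges overlapped between neighbours in this order.

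Hs3st3b1, the heparan sulfate 3-O-sulfotransferase, was likewise lowest in the older wild-type mice. At 9 months it ran from 7.26 to 17.1 CPM in wild-type mice with a median of 10.9 (n = 6). The SCA3 mice 9, 10, 12, 14 and 15 had 10.3, 11.5, 12.9, 12.7 and 16.5 CPM. The younger SCA3 samples lay within the wild-type range. By 17.5 months the wild-type range was 4.06 to 9.34 CPM with a median of 7.45 (n = 6). SCA3 mice 8, 11, 13, 14 and 15, of the same age, had 13.5, 11.6, 13.6, 10.6 and 12.8 CPM. The older groups did not overlap in CPM or after correction. The corrected means were 3.74 ± 0.17 in SCA3 mice at 17.5 months, 3.6 ± 0.21 in SCA3 mice at 9 months, 3.51 ± 0.43 in wild-type mice at 9 months and 2.72 ± 0.35 in wild-type mice at 17.5 months. The first 3 groups overlapped with each other, and the oldest wild-type group lay below all of them, wild-type mice at 9 months included. Its highest value, 3.064, was however close to the lowest of wild-type mice at 9 months, 3.071. In CPM the wild-type groups overlapped.

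Phf13, the histone reader, showed the smallest difference. At 9 months it ran from 5.80 to 10.9 CPM in wild-type mice with a median of 9.9 (n = 6). In the SCA3 group mice 9, 10, 12, 14 and 15 had 8.31, 13.1, 11.6, 12.8 and 14.4 CPM. Of these SCA3 samples 4 exceeded every wild-type sample of that age in CPM, and 3 did after GC correction. The lowest wild-type value, that of mouse 6, stood apart from the others, which began at 9.06 CPM. Older wild-type mice ranged from 4.73 to 11.9 CPM with a median of 8.65 (n = 6). SCA3 mice 8, 11, 13, 14 and 15, of the same age, had 11.4, 8.46, 11.6, 9.48 and 8.20 CPM. In CPM none of the 5 was above the highest wild-type sample, that of mouse 6. With TMM scaling alone (log2), mice 8, 13, 14 and 15 were above that sample, at 3.47, 3.38, 3.32 and 3.34. Mouse 11, at 3.16, was below it. After TMM scaling most of the SCA3 samples were thus already above the wild-type range, before any GC correction. With GC correction all 5 were, at 3.31 to 3.58 against 2.68 to 3.16. The GC content of its exons was 54.0%. The corrected means were 3.52 ± 0.16 and 3.46 ± 0.10 in SCA3 mice at 9 and 17.5 months and 3.2 ± 0.27 and 2.95 ± 0.18 in wild-type mice of these ages, and neighbours in the order of the 4 means had ranges that overlap.

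**Figure D1:**
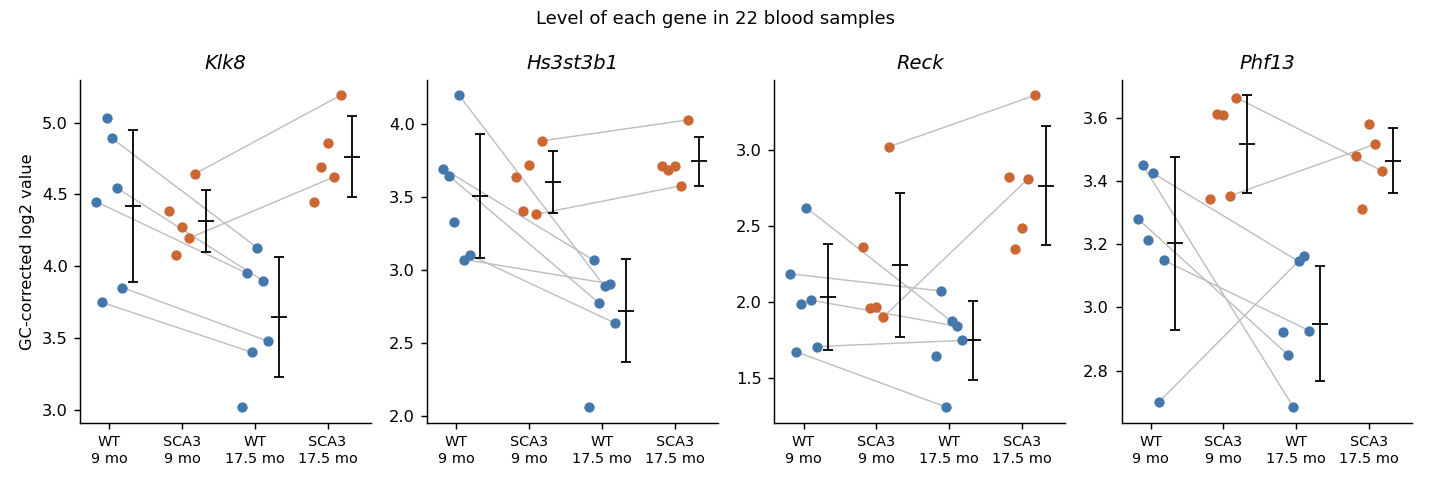
GC-corrected log2 value of each gene (y axis) in the 4 groups (x axis); points are samples, grey lines join samples of the same mouse, and the black marks give the mean ± SD of 5 or 6 samples. At 17.5 months the SCA3 samples lay above all wild-type samples in each of the 4 panels, while the groups overlapped at 9 months.

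The genotype difference of the 4 genes was tested in the 9-month samples. For Klk8 the log2 difference of SCA3 minus wild-type at 9 months was -0.17 ± 0.22 (SE), with a 95% interval of -0.63 to 0.29. For Hs3st3b1 it was 0.05 ± 0.18, with an interval of -0.33 to 0.44, and for Reck 0.24 ± 0.22, with an interval of -0.22 to 0.71. Adjusted over all genes, these p-values were 0.906, 0.970 and 0.870 (edgeR quasi-likelihood test), and the two-sided exact permutation p-values of the corrected values were 0.682, 0.669 and 0.435. For Phf13 the difference was 0.30 ± 0.12, with an interval of 0.05 to 0.55. Its unadjusted p was 0.0215 and its exact permutation p 0.0390, where the smallest p that 6 against 5 samples allow is 0.00216, but the adjusted p was 0.760. Phf13 exceeded the wild-type mean in 5 of 5 SCA3 mice. Thus 0 of the 4 genes passed at 9 months by this test (1 had an unadjusted p under 0.05, and DESeq2 called 0), beside 0.0% of all genes called and 6.48% with an unadjusted p under 0.05. None of the 4 separated the groups completely, which 0.102% of the genes did with SCA3 higher and 0.122% with SCA3 lower.

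At 17.5 months, where the members were chosen, the log2 differences were 1.09 ± 0.22 (SE) for Klk8, 1.04 ± 0.22 for Reck, 1.0 ± 0.18 for Hs3st3b1 and 0.51 ± 0.12 for Phf13. Among the 9850 differences in order from the highest, Klk8 was number 18, Reck 22, Hs3st3b1 30 and Phf13 347. The median over all genes was -0.03, and 0.0406% of the genes passed an adjusted p of 0.05. The SCA3 samples lay above all wild-type samples for 4 of the 4 genes, beside 1.17% of all genes, and 1.83% of all genes had them below. In CPM, with neither TMM scaling nor GC correction, this held for Hs3st3b1 and Reck, beside 0.609% of all genes. With TMM scaling alone it also held for Klk8, and not for Phf13, but the share of all genes was not counted on that scale. Without GC correction the differences were 0.74 for Klk8, 0.93 for Hs3st3b1, 1.12 for Reck and 0.30 for Phf13. The GC-rich Klk8 and Phf13 were thus the ones whose values depended most on the correction. With RIN as a covariate over the 21 samples that have one the differences were 1.02, 1.05, 1.11 and 0.50 in the same order of genes.

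**Figure D2:**
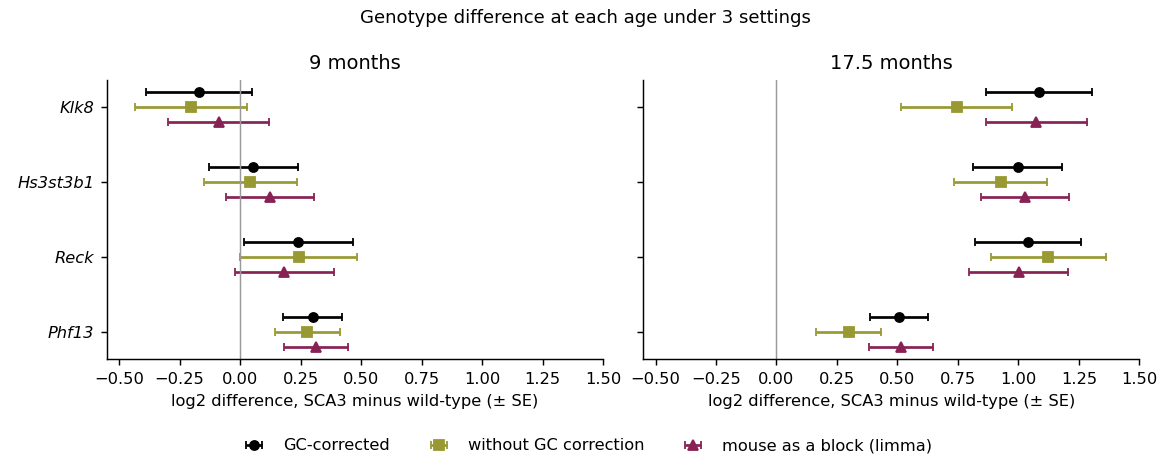
Log2 difference of SCA3 minus wild-type ± SE (x axis) for each gene (y axis) at 9 months (left) and 17.5 months (right), with GC correction, without it, and from limma with the mouse as a block. The 17.5-month values lie at 0.30 or more under the 3 settings, and the 9-month values lie between -0.20 and 0.31.

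Within wild-type mice all 4 genes had lower corrected means at 17.5 than at 9 months, and within SCA3 mice 3 of the 4 had higher ones. These values share the 17.5-month samples that chose the genes and were not tested. The SEs of the differences come from a fit with no term for the mouse. The pairing of mice sampled at both ages was therefore not used in them. Library totals and mean RIN also differed between the ages, and their part in the age differences was not tested. In wild-type mice the log2 difference with age was -0.81 ± 0.18 (SE) for Hs3st3b1, -0.80 ± 0.21 for Klk8, -0.29 ± 0.22 for Reck and -0.26 ± 0.12 for Phf13. For Hs3st3b1 the corrected values of the older wild-type samples lay below all younger ones, which 0.426% of all genes showed. The gap was narrow, from 3.064 (older mouse 2) to 3.071 (younger mouse 6). In CPM the wild-type groups overlapped, at 4.06 to 9.34 in the older and 7.26 to 17.1 in the younger mice. The wild-type T cell score (the mean corrected log2 value of its marker genes) was 6.00 ± 0.41 at 9 months and 5.33 ± 0.26 at 17.5 months, and the neutrophil score 8.39 ± 0.74 and 7.70 ± 0.29. Taken relative to the T cell score, the wild-type differences with age were -0.11 for Klk8, -0.12 for Hs3st3b1, 0.38 for Reck and 0.41 for Phf13 (log2, gene minus score). Relative to the neutrophil score they were -0.08, -0.09, 0.41 and 0.44. These scores fell most with age in wild-type mice. Relative to the other scores, Klk8 and Hs3st3b1 ran from -1.32 and -1.34 (B cells) to -0.20 and -0.21 (red cell precursors). Reck and Phf13 ran from -0.83 and -0.80 (B cells) to 0.29 and 0.32 (red cell precursors). The part of these cell types in the age differences was not tested. In SCA3 mice the differences were 0.51 ± 0.23 for Reck, 0.46 ± 0.23 for Klk8, 0.14 ± 0.19 for Hs3st3b1 and -0.05 ± 0.13 for Phf13. The T cell score of these mice was 5.83 ± 0.41 at 9 months and 5.56 ± 0.21 at 17.5 months. Relative to it the differences were 0.79, 0.72, 0.41 and 0.22 in the same order of genes. The genotype difference at 17.5 months thus exceeded that at 9 months by 1.26 ± 0.31 for Klk8, 0.94 ± 0.26 for Hs3st3b1, 0.80 ± 0.31 for Reck and 0.21 ± 0.17 for Phf13. For Hs3st3b1 and Klk8 the wild-type values moved further with age than the SCA3 values, and for Reck it was the other way round. Mice sampled at both ages gave 5 of the 6 wild-type samples at each age, so their changes are not independent of these differences. Their directions were the same for Klk8 and Hs3st3b1. For Klk8 the 5 wild-type mice changed by -0.76 to -0.35 and SCA3 mice 14 and 15 by 0.43 and 0.54. For Hs3st3b1 the 5 wild-type mice changed by -1.31 to -0.17 and the SCA3 mice by 0.20 and 0.14. Reck changed by 0.91 and 0.34 in the SCA3 mice and by -0.75 to 0.04 in the wild-type mice, 4 of which were lower. Phf13 moved both ways, at -0.77 to 0.46 in the wild-type mice and at 0.16 and -0.23 in the SCA3 mice.

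Genes that work with the members were followed in 10 lists, in which 99 different genes besides the members were measured. None passed an adjusted p of 0.05 at either age (edgeR quasi-likelihood test). By that test 4 had an unadjusted p under 0.05 at 9 months and 23 at 17.5 months. DESeq2 without GC correction called 0 and 32 of them at these ages, beside 0 and 2680 of all 9850 genes. The 23 genes are 23.2% of the 99, beside 18.2% of all genes, and 10 of them were higher and 13 lower in SCA3 blood. No kallikrein other than Klk8 was in the table, of 14 looked for.

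For Klk8, the thrombin receptor F2r had the smallest p of these genes, with a log2 difference of 0.75 ± 0.19 (SE) at 17.5 months (adjusted p = 0.0832). F2rl1, the protease-activated receptor that trypsin-like enzymes cleave, had 0.87 ± 0.29 (adjusted p = 0.146). Fibronectin, Fn1, had -0.86 ± 0.56. Of the 11 serine protease inhibitors measured 6 had positive and 5 negative differences, with a median of 0.09. Slpi, the leukocyte protease inhibitor stored in neutrophils, had the highest difference, at 0.87 ± 0.30 (adjusted p = 0.152), while Serpinb6b and Serpinb2 were at 0.28 ± 0.19 and 0.49 ± 0.34.

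For Reck, 11 metalloproteinases were measured, 8 with positive and 3 with negative differences at 17.5 months and a median of 0.30. Adam19, Adam8 and Adam9, all membrane-bound sheddases, were at 0.36 ± 0.12, 0.58 ± 0.28 and 0.32 ± 0.17 (SE; adjusted p = 0.153, 0.272 and 0.322). Timp2, a secreted inhibitor of the same enzymes, was the 1 measured gene of the 7 listed inhibitors and partners, with 0.65 ± 0.22 (adjusted p = 0.145). The partner Adgra2 was not in the table.

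For Hs3st3b1, 1 other 3-O-sulfotransferase was measured. This gene, Hs3st1, which modifies the same sugar in another sequence context, differed by 0.05 ± 0.19 (SE) at 17.5 months and by 0.29 ± 0.19 at 9 months. Of 11 genes of heparan sulfate modification 6 had positive and 5 negative differences at 17.5 months, with a median of 0.05. Ndst2, Papss1 and Hs6st1, which add sulfate or supply its donor, were at -0.23 ± 0.08, -0.27 ± 0.10 and -0.26 ± 0.12 (adjusted p = 0.154, 0.182 and 0.258). Of 9 genes of chain synthesis 3 were positive and 6 negative. Their lowest p belonged to B3galt6 (0.51 ± 0.18), Extl3 (-0.22 ± 0.09) and the polymerase gene Ext1 (-0.54 ± 0.24). Among the 8 core proteins the median was 0.01. Gpc1, Srgn (the proteoglycan of leukocyte granules) and Cd44 were at 0.37 ± 0.16, 0.32 ± 0.14 and 0.34 ± 0.16.

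For Phf13, all 18 other listed readers of methylated lysine 4 of histone H3 were measured, 7 with positive and 11 with negative differences at 17.5 months and a median of -0.02. Pygo2, Cxxc1 and Phf23 were at 0.27 ± 0.09, -0.20 ± 0.09 and 0.15 ± 0.08 (SE; adjusted p = 0.132, 0.228 and 0.297). Of 25 genes of histone methylation and heterochromatin 7 were positive and 18 negative, with a median of -0.15. The heterochromatin protein Cbx3 was at -0.35 ± 0.12, the methyltransferase Ehmt1 at -0.24 ± 0.09 and the complex subunit Ash2l at -0.29 ± 0.11. Ehmt1 was the 1 gene of the 99 whose groups did not overlap at 17.5 months, with SCA3 lower, beside 1.83% of all genes.

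**Figure D3:**
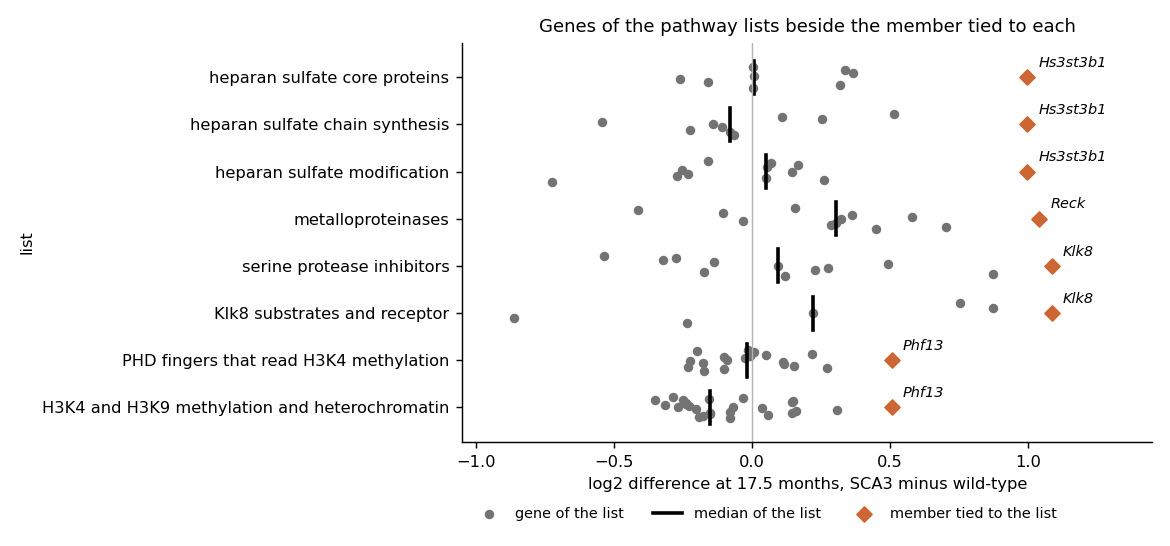
Log2 difference of SCA3 minus wild-type at 17.5 months (x axis) for the genes of 8 lists (y axis); grey points are genes, black bars the median of a list, and diamonds the member tied to the list. The medians run from -0.15 to 0.30, and each diamond, a gene chosen for this difference, lies to the right of every other gene of its list.

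Cell markers were compared because whole blood mixes cell types, and fewer cells of a type and less RNA per cell cannot be told apart in such samples. Each score is the mean corrected log2 value of a marker list. At 17.5 months the neutrophil score was 8.5 ± 0.57 in SCA3 and 7.7 ± 0.29 in wild-type mice, with 8 of 8 markers higher, a difference of 0.80 (two-sided exact permutation p = 0.0108, adjusted p = 0.195 over 18 comparisons). The summed level of these markers was 6033 to 16710 CPM in SCA3 and 3944 to 6952 CPM in wild-type mice. The NK cell score differed by 0.58 (exact permutation p = 0.0281, adjusted p = 0.253), with 9 of 9 markers higher and summed levels of 528 to 946 CPM against 288 to 789 CPM. The T cell score differed by 0.23 (exact permutation p = 0.149), with 10 of 12 markers higher and 732 to 1020 CPM against 503 to 790 CPM. B cell markers were lower in 9 of 9 genes, and their score differed by -0.38 (exact permutation p = 0.106), at 2976 to 5664 CPM against 3278 to 7798 CPM. The score of eosinophils and basophils differed by -0.53 (exact permutation p = 0.188), with 6 of 7 markers lower. At 9 months it differed by -0.58 (exact permutation p = 0.158). The monocyte score differed by -0.27 at 17.5 months (exact permutation p = 0.167), with 5 of 7 markers lower. The remaining scores differed by 0.02 to 0.23. No score passed the adjustment at either age. The part of these cell types in the differences of the 4 genes was not tested.

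Taken relative to the T cell score, the differences of SCA3 minus wild-type at 17.5 months were 0.88 for Klk8, 0.79 for Hs3st3b1, 0.79 for Reck and 0.28 for Phf13 (log2, gene minus score). They are a description with no test, since this contrast chose the genes. On this measure the group means of Klk8 were -0.80 ± 0.36 in SCA3 and -1.68 ± 0.35 in wild-type mice. In the same order they were -1.82 ± 0.19 and -2.61 ± 0.32 for Hs3st3b1 and -2.79 ± 0.30 and -3.58 ± 0.33 for Reck. For Phf13 they were -2.10 ± 0.26 and -2.38 ± 0.31. The ranges of Reck and Phf13 overlapped between the groups. Relative to the neutrophil score the differences were 0.31, 0.22, 0.22 and -0.29. Relative to the NK cell score they were 0.54, 0.44, 0.44 and -0.06, and the ranges of the groups overlapped for each gene. Across the remaining scores, the lowest differences were 0.88, 0.79, 0.79 and 0.28 (red cell precursors). The highest were 1.65, 1.56, 1.55 and 1.05 (eosinophils and basophils).

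Whether a gene followed a cell type from mouse to mouse was tested on deviations from the group means, which take out the contrast that chose the genes. A mouse sampled at both ages entered once, as the mean of its 2 deviations, and gene and score come from the same library and so share its depth and correction. The permutations treated the 15 mice as exchangeable, although deviations from a shared mean are not independent and some average 2 samples. Their p-values are therefore approximate. Of 36 relations (4 genes, 9 scores, n = 15 mice) 1 passed the adjusted threshold, that of Reck with T cells. Its Pearson r was 0.747 and its Spearman rho 0.789 (two-sided permutation p = 0.00117 and 0.00075, adjusted p = 0.0421 and 0.027). Without the 2 mice farthest from the median score r was 0.743. With each mouse left out in turn r ran from 0.67 to 0.8, and the adjusted p stayed under the threshold in 6 of 15 cases. It was lost without mouse 1, 2, 5, 6, 10, 11, 12, 13 or 15, and was highest, 0.307, without mouse 15. Klk8 had an r of 0.640 and rho of 0.646 with T cells (permutation p = 0.0104 and 0.0109, adjusted p = 0.187 and 0.197), and 0.548 without the 2 farthest mice. Hs3st3b1 had 0.487 and 0.507 (permutation p = 0.0634 and 0.0571, adjusted p = 0.571 and 0.447), and 0.350 without those mice. Phf13 had an r of 0.152 and a rho of 0.05 (permutation p = 0.587 and 0.863). The 32 relations outside T cells had an r between -0.498, for Phf13 and monocytes, and 0.417, for Phf13 and B cells, with adjusted p-values of 0.571 or more.

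**Figure D4:**
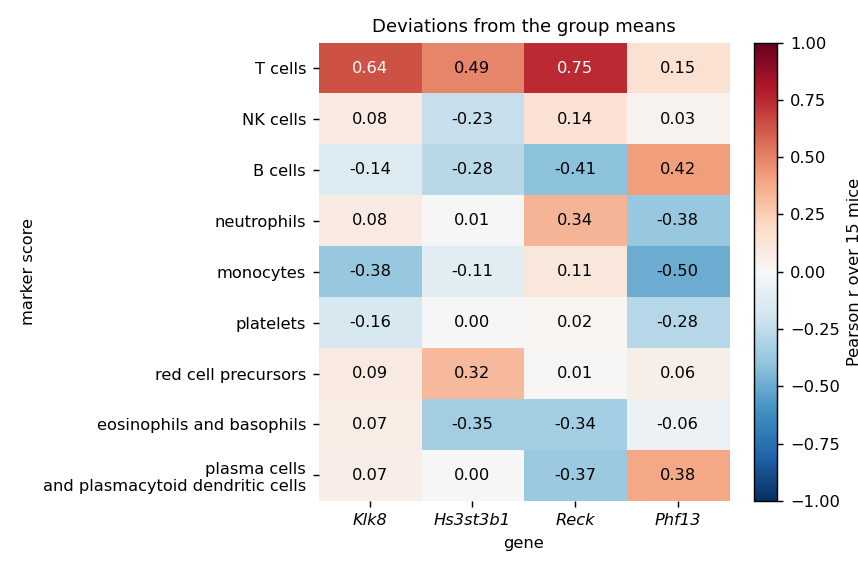
Pearson r between each gene (x axis) and each marker score (y axis) over 15 mice, as deviations from the group means, with red for positive and blue for negative values. The T cell line holds the highest value of Klk8, Hs3st3b1 and Reck, and the highest value of Phf13 is with B cells.

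**Figure D5:**
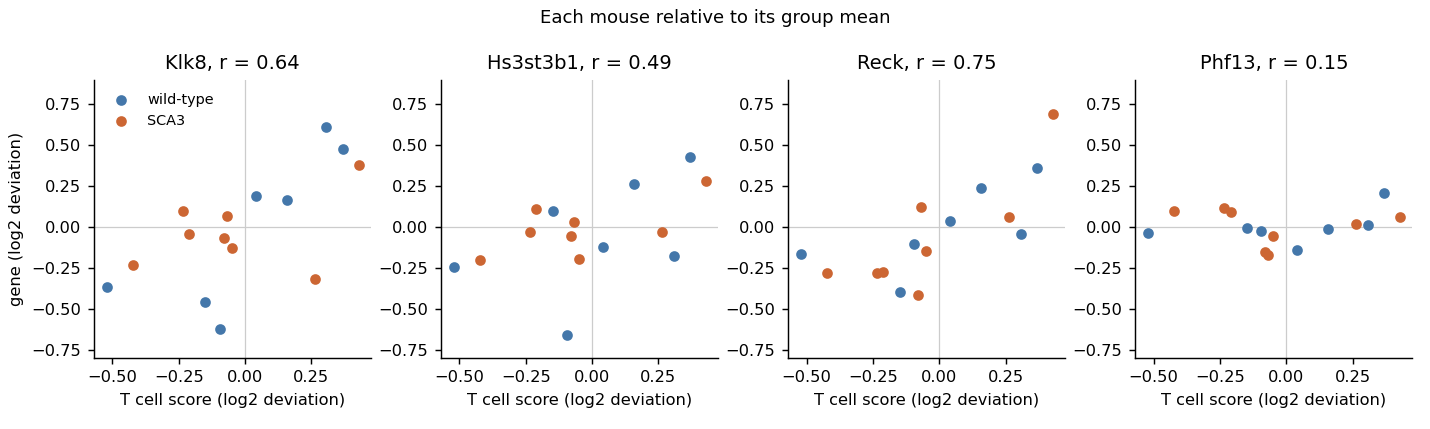
Deviation of each gene from its group mean (y axis, log2) against that of the T cell score (x axis, log2) for 7 wild-type and 8 SCA3 mice, 1 point a mouse. The points of Reck and Klk8 rise with the score (r = 0.747 and 0.640), and those of Phf13 stay near 0 (r = 0.152).

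Single marker genes gave a description of the same kind over the 22 samples, in which 7 mice appear at both ages. With Cd3e, a chain of the T cell receptor complex, r of the deviations was 0.654 for Reck, 0.524 for Klk8, 0.372 for Hs3st3b1 and 0.048 for Phf13. With Ncr1, the NK cell receptor NKp46, all 4 values were negative, at -0.521 for Hs3st3b1, -0.426 for Reck, -0.289 for Klk8 and -0.267 for Phf13. With the score of all 9 NK cell markers over the same samples, r was 0.056 for Klk8, -0.156 for Hs3st3b1, 0.163 for Reck and -0.143 for Phf13. With S100a8, a neutrophil protein, r was 0.168 for Klk8, 0.012 for Hs3st3b1, 0.194 for Reck and -0.346 for Phf13. With Csf1r, the receptor of monocyte growth factor, it was -0.377 for Klk8 and between -0.047 and 0.112 for the other 3.

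Among themselves Klk8, Hs3st3b1 and Reck had deviations with r from 0.565 to 0.634 over the 22 samples, and Phf13 had 0.480 with Hs3st3b1, 0.252 with Reck and 0.107 with Klk8. By the same measure the 5 genes of the whole table most like Klk8 were Itm2a (r = 0.858), Cd3g, Tdrp, Cd27 and Cd8b1 (r = 0.816), of which Cd3g and Cd8b1 belong to the T cell marker list. Those most like Reck were Mettl20 (r = 0.825), Cd3d, also a marker of that list, Cd27, Ms4a4b and Gzmm (r = 0.803). Those most like Hs3st3b1 were Tdrp (r = 0.829), Utrn, Slc39a14, Tnfsf8 and Inpp4b (r = 0.791). Those most like Phf13 were Kbtbd2 (r = 0.814), Peli1, Akap13, Nup153 and Uba6 (r = 0.774). Tdrp and Cd27 thus stood in 2 of these groups of 5, and no gene of the group of Phf13 stood in another. The order rests on the measure: by Spearman rho 4, 1, 2 and 3 of the 5 genes of Klk8, Reck, Hs3st3b1 and Phf13 stayed, and without GC correction 3, 1, 4 and 0.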

How the data were processed

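The authors depleted globin RNA, made unstranded polyadenylated RNA libraries and deposited raw counts per RefSeq gene for genes averaging at least 4 CPM, without normalization. Per the labels and the study's methods, reads were trimmed with cutadapt 1.10, aligned to GRCm38 (mm10) with STAR 2.3.0e, keeping single alignments, and counted with HTSeq 0.6.1 without strand. Here each gene's counts were corrected for GC content per sample by quantile regression (quantreg 6.1, 5 knots, curves fitted to genes averaging 50 counts or more) and quantile normalization, a rewriting of CQN, which was not installed. The offsets entered edgeR 4.0.16 (R 4.3.3) with 1 coefficient per group over all 22 samples. The test was its quasi-likelihood test, with p-values adjusted by Benjamini-Hochberg over 9850 genes (threshold 0.05), and the likelihood ratio test of the study was an alternative. The steps were tested on simulated data. Corrected log2 values add a pseudocount of 1 count.

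Permutation tests of relations used 100000 resamples. GC content and exons came from GENCODE M21 (9513 symbols matched as they stand, 294 by another name and 43 not at all). The members and lists were chosen with earlier results of these data known. Named genes were the members, genes overlapping their exons, the 3 genes of each list with the smallest p at 17.5 months, measured relatives, the 5 most similar genes per member and 4 marker genes. The check of mice sampled at both ages used the mouse numbers in the labels (limma 3.58.1, correlation 0.302 within a mouse).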

Additional observations from a re-analysis of the deposited data

Results flagged for a closer look

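At 17.5 months the platelet score of SCA3 mouse 13 was 7.87, while the other 4 SCA3 mice of that age had 8.95 to 9.29. Its gap to the nearest of them was 0.758 of the range of the group. In CPM, the 9-month SCA3 sample of mouse 15 had a Reck value of 8.90, where its 4 group mates had 3.88 to 4.41, with a gap of 0.895 of the range. For Phf13 the 9-month wild-type sample of mouse 6 had 5.80 CPM, where its 5 group mates had 9.06 to 10.9, with a gap of 0.637 of the range. On the GC-corrected log2 scale neither stood apart in this way. Of 68 groups of samples looked at (4 genes on 2 scales and 9 scores, in 4 groups) 3 had so isolated a sample, and chance alone would give about 3.4; the CPM values were added after seeing the data.

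In mice sampled at both ages the change from 9 to 17.5 months went opposite ways by genotype for 2 of the 4 genes. For Klk8 the wild-type median was -0.50 (log2, 5 of 5 mice lower) and the SCA3 mice changed by 0.43 and 0.54 (2 of 2 higher). For Hs3st3b1 the wild-type median was -0.63 (5 of 5 lower) and the SCA3 mice changed by 0.14 and 0.20 (2 of 2 higher). The difference between genotypes was not tested, since the genes were selected on the 17.5-month samples that it uses. Selection on high SCA3 and low wild-type values at that age favours changes in these directions. The share of all genes with such changes was not counted.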

How the results depend on the processing

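Over 9 alternatives the number of members called at 9 months was 0 each time, and so it was with each sample left out (0 to 0). At 9 months Klk8 ran from -0.33 to -0.09 under the alternatives and from -0.28 to -0.03 with a sample left out, Phf13 from 0.23 to 0.31 and from 0.22 to 0.35, Reck from 0.07 to 0.25 and from -0.0059 (without SCA3 mouse 15) to 0.38, and Hs3st3b1 from -0.011 to 0.12 and from -0.026 (without wild-type mouse 6) to 0.22. Hs3st3b1 turned to -0.011 when transcript length was corrected along with GC content. With the mouse as a replicate block the 9-month differences were -0.09 for Klk8, 0.12 for Hs3st3b1, 0.18 for Reck and 0.31 for Phf13, and those of 17.5 months 1.07, 1.03, 1.0 and 0.52. At 9 months 0 genes of the table were called by limma with the block and 0 without it, and at 17.5 months 20 with it and 4 without it (617 and 624 had an unadjusted p under 0.05 at 9 months). At 17.5 months Phf13 was at 0.30 without GC correction and 0.31 in DESeq2 without GC correction. With a sample left out Klk8 ran from 0.97 to 1.19, Hs3st3b1 from 0.89 to 1.07, Reck from 0.87 to 1.14 and Phf13 from 0.46 to 0.55. Of the pathway genes 1 (F2r) was called at 17.5 months by the likelihood ratio test, 18 without GC correction and 32 by DESeq2, beside 142, 2080 and 2680 of all genes; with a sample left out it was 0. The number of relations past the threshold was 2 without GC correction, which added Klk8 with T cells (r = 0.757, adjusted p = 0.0171), and ran from 0 to 2 with a mouse left out; r of Phf13 with T cells then ran from -0.059 to 0.281. Without subtraction of the group means r of Reck with T cells was 0.437. The leave-out of mice and a limma fit without the block were added after seeing the data. The cause of these changes was not tested. Counts down to 61 limit the precision of Reck, and RIN is missing for 1 SCA3 sample at 9 months, which the fit with RIN drops.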
